A study of Rattus norvegicus with 24 samples.

Results

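The genes described here make, package and recapture catecholamines, and they were chosen by symbol: Th, Ddc, Dbh, Pnmt, Gch1, Slc18a1, Slc18a2, Slc6a2 and Cyb561, 9 of the 17055 genes listed for each library. RNA of 24 libraries was counted from PC12, a rat pheochromocytoma line derived from chromaffin cells of the adrenal medulla, at passages 18 to 20. Per the labels, a line stably transfected for human α1ACT, the C-terminal product of the calcium channel transcript CACNA1A, was set against a line stably carrying empty pcDNA3 (the vector line). Both lines have samples labelled 6 h, 24 h, 3 d and 10 d, and each of these 8 groups holds 3 replicates. No treatment and no starting point of these times is stated, and since each line is a single stable one, an effect of α1ACT cannot be told apart from anything else that separates the lines. Below, "α1ACT" and "vector" are the lines as labelled, and levels are CPM, read counts set against the library's total on genes after TMM scaling.

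Catecholamines are made from tyrosine. Tyrosine hydroxylase makes L-DOPA with the cofactor tetrahydrobiopterin, DOPA decarboxylase turns it into dopamine, and dopamine is pumped into secretory granules, where dopamine β-hydroxylase makes noradrenaline with electrons that come from ascorbate across the granule membrane. In the adrenal medulla a further enzyme methylates noradrenaline to adrenaline, while the noradrenaline transporter returns released amine to the cell.

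The names of the deposited files go against the labels for 18 of the 24 libraries, with another time in all 18 and another line as well in 12, while the replicate numbers match in all 24. The names keep the 3 libraries of each group together, so only the heading of a group changes. By the file names, the groups labelled α1ACT 6 h, vector 24 h and α1ACT 24 h would be vector at 24 h, 3 d and 10 d. Those labelled vector 3 d, α1ACT 3 d and vector 10 d would be α1ACT at 6 h, 24 h and 3 d, and vector 6 h and α1ACT 10 d carry the same name in both. Every group and test below follows the labels. By the file names, the line differences given below are not of lines but of times within a line, 24 h over 6 h (labelled 6 h) and 10 d over 3 d (labelled 24 h) in vector, and 24 h over 6 h (labelled 3 d) and 10 d over 3 d (labelled 10 d) in α1ACT. The levels arranged by file name are given after the comparisons.

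Depth was 8679560 to 14486248 counts on genes per library, so that a count of 0 allows up to 0.207 to 0.346 CPM (3 counts, counting error only). The chromaffin identity was visible in every library. The 13 chromaffin markers present in the files, led by the granins Chgb, Scg2 and Chga, summed to 20029.5 to 27567 CPM, although the prohormone convertases Pcsk1 and Pcsk2 were at 0. That sum was 25708 to 26834 CPM in α1ACT and 20029.5 to 21436 CPM in vector libraries at 10 d. It was 24368 to 27567 CPM in α1ACT and 20894 to 21778 CPM in vector libraries at 24 h. Of 11 tested markers, 3 were higher and 2 lower in α1ACT at each of these times (edgeR adjusted p under 0.05). Of all tested genes, 26.6% were higher and 28.8% lower at 24 h, and 29.5% and 29.4% at 10 d. At 10 d Chgb averaged 13680 CPM in α1ACT and 9652.5 CPM in vector, and Phox2a 249.8 CPM in α1ACT and 466 CPM in vector. Markers of the adrenal cortex (10 genes, 5 at 0) summed to 1.35 to 3.37 CPM, of fibroblasts (9 genes, 4 at 0) to 0.667 to 7.34, of immune cells (9 genes, Ptprc and Aif1 at 0) to 1.27 to 3.87 and of endothelium (7 genes, 3 at 0) to 1.72 to 4.46. Schwann and glial markers (8 genes) summed to 45.5 to 62.3 CPM, with Sox10 at 0.

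Promoter windows of 3 members are shown because the genes differ in how their RNA behaved here: Th is abundant and highest at α1ACT 10 d, Gch1 is lowest at vector 10 d, and Slc18a2 is nearly absent. Each runs 5′ to 3′ from 250 bases before to 50 bases after the gene's start in RefSeq's GRCr8 assembly, which is not the build of the counts. The windows lie at chr1:207508169-207508468 on the minus strand (Th), chr15:22917363-22917662 on the minus strand (Gch1) and chr1:268399771-268400070 on the plus strand (Slc18a2). Capitals mark matches on either strand to the cAMP response element TGACGTCA or its 5-base core TGACG, the AP-1 element TGANTCA, and the box CCAAT.
Th: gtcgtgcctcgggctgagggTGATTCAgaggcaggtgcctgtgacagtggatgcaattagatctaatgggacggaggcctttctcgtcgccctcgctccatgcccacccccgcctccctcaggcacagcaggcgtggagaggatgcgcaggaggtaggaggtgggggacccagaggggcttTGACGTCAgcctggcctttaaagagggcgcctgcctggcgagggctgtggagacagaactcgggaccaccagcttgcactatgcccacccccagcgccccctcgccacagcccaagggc
Gch1: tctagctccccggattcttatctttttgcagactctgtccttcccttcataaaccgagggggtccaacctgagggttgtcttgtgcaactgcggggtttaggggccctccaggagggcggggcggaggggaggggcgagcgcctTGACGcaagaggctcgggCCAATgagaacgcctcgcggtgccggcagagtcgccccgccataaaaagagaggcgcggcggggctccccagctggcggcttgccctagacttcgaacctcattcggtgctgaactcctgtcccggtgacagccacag
Slc18a2: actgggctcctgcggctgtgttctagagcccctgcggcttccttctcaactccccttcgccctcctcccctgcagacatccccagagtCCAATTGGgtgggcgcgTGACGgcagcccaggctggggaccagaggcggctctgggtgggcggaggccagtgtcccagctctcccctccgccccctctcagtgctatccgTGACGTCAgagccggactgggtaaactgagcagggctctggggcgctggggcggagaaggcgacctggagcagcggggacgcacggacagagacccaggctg
The full TGACGTCA stands in the Th and in the Slc18a2 window, and in 1.83% of all 33469 windows of that length. The core TGACG, which each full element holds on both strands, is in 21.2% of windows, TGANTCA in 7.33% and CCAAT in 37.5%. Gch1 has the core and the CCAAT box but not the full element. TATAAA was also searched and is in none of these 3 windows (14.2% of all). Windows were at hand for 6 of the 9 members and not for Pnmt, Slc18a1 or Slc6a2. These are matches of letters and say nothing on what binds there.

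Of the 9 members, 7 passed the filter on low counts and 2 did not. Pnmt, the enzyme that makes adrenaline, had 1 read in all 24 libraries, in α1ACT 6 h replicate 1. Slc18a2, the vesicular monoamine transporter that neurons use, had 24 reads in 12 libraries and reached 0.532 CPM in vector 6 h replicate 1, where 6 of those reads lay. Slc18a1, its endocrine counterpart, had 256651 reads. No fold is given for Pnmt or Slc18a2, since every group averaged no more than 3 counts per library.

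**Figure D1:**
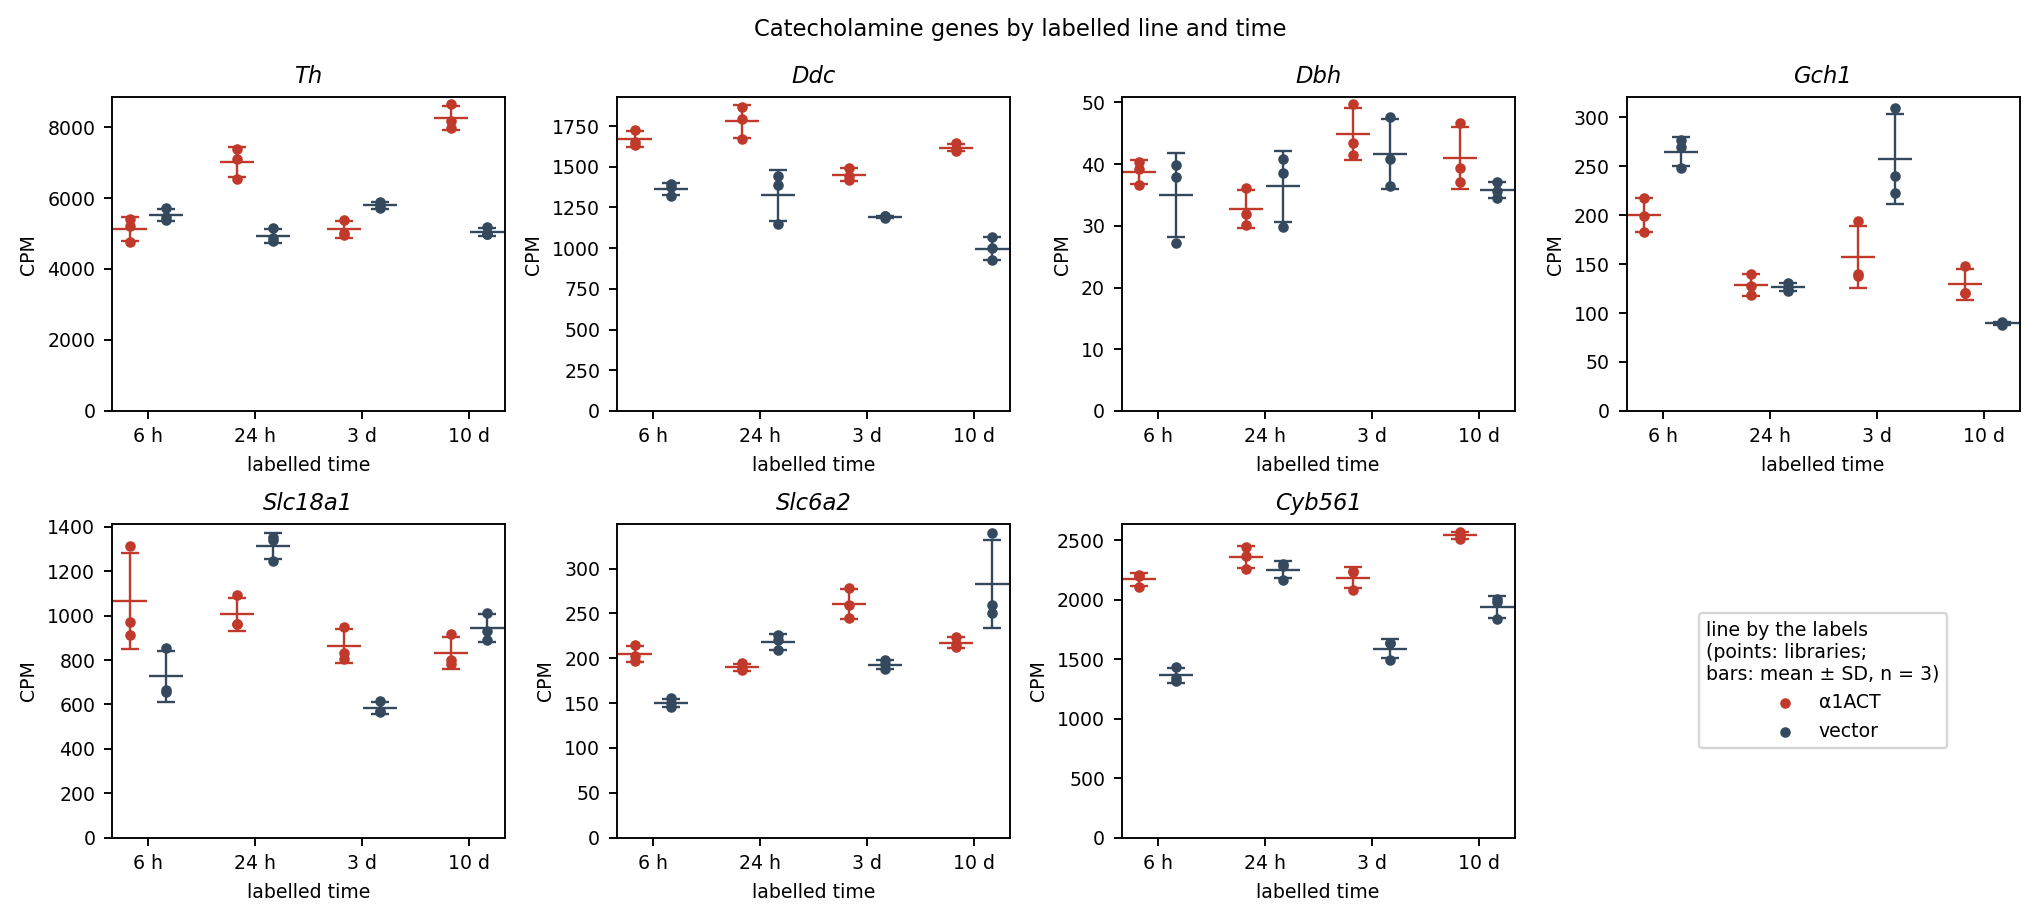
CPM of the 7 measurable members in each library (points) with the mean and SD of 3 replicates (bars), against labelled time, with α1ACT to the left of vector. Th stood highest in α1ACT at 24 h and 10 d (7006 and 8265 CPM), and Gch1 lowest in vector at 10 d (89.3 CPM).

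Th encodes tyrosine hydroxylase, the rate-limiting enzyme of the pathway. In α1ACT libraries it stood at 5216, 5403 and 4761 CPM at 6 h, 6544, 7106 and 7368 at 24 h, 5024, 5377 and 4946 at 3 d, and 8183, 7972 and 8639 at 10 d. In vector libraries it stood at 5720.5, 5376 and 5471 CPM at 6 h, 4881, 5155 and 4779.8 at 24 h, 5896, 5724 and 5760.1 at 3 d, and 5172, 4983 and 4994 at 10 d. The α1ACT libraries lay above all vector libraries at 24 h and 10 d, below them at 3 d, and overlapped them at 6 h. Th was 1.42-fold higher in α1ACT at 24 h (log2 fold change 0.50 ± 0.05 SE, edgeR adjusted p = 1.44e-08) and 1.64-fold higher at 10 d (0.71 ± 0.05, adjusted p = 3.96e-11). It was 1.13-fold lower at 3 d (-0.18 ± 0.05, adjusted p = 0.00995), a call that ended without all libraries numbered 1 (adjusted p = 0.107) or all numbered 3 (0.117). At 6 h the difference of -0.11 ± 0.05 did not pass (adjusted p = 0.112), but it did without all libraries numbered 2 (-0.16, 0.0213). In order of level, the groups vector 24 h, vector 10 d, α1ACT 3 d, α1ACT 6 h and vector 6 h each overlapped the next. Vector 3 d, α1ACT 24 h and α1ACT 10 d followed, each apart from the one before. Vector 3 d was so only narrowly (lowest library 5724 CPM, highest of vector 6 h 5720.5 CPM), and that difference did not pass (edgeR adjusted p = 0.642). In such bulk samples fewer cells of a type and less RNA per cell cannot be told apart. Among reads with a unique place, those outside annotated genes were 51.6% ± 0.589 in α1ACT and 50.4% ± 0.362 in vector libraries at 24 h, and 52.5% ± 0.299 in α1ACT and 50.9% ± 0.364 in vector libraries at 10 d (SD, n = 3), and their part in these differences was not tested.

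Gch1 encodes GTP cyclohydrolase, which starts and limits synthesis of the cofactor that tyrosine hydroxylase needs. It had 199, 217 and 183 CPM in α1ACT libraries at 6 h, 118, 140.2 and 128 at 24 h, 140.0, 194 and 138 at 3 d, and 120.1, 121 and 148 at 10 d. In vector libraries it had 248, 276 and 269.6 CPM at 6 h, 123, 125 and 131 at 24 h, 239.6, 309 and 222 at 3 d, and 90.6, 87.9 and 89.6 at 10 d. It was the most variable member, with group means 2.96-fold apart between vector 6 h and vector 10 d. Gch1 was lower in α1ACT at 6 h (1.33-fold, -0.41 ± 0.11, edgeR adjusted p = 0.00434) and 3 d (1.64-fold, -0.71 ± 0.11, adjusted p = 1.67e-05), and higher at 10 d (1.45-fold, 0.53 ± 0.12, adjusted p = 0.000372). Without all libraries numbered 3 the call at 6 h ended (adjusted p = 0.0652). At 24 h the groups overlapped, at a mean of 129 CPM in α1ACT and 126 CPM in vector libraries (0.03 ± 0.11, adjusted p = 0.871). Vector 10 d stood below every other group, while vector 24 h, α1ACT 24 h, α1ACT 10 d, α1ACT 3 d and α1ACT 6 h each overlapped the next. Vector 3 d and vector 6 h stood above these and overlapped each other.

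Ddc encodes DOPA decarboxylase, the next enzyme of the pathway. Its α1ACT libraries held 1651, 1723 and 1634 CPM at 6 h, 1793, 1672 and 1869.9 at 24 h, 1417, 1492 and 1445 at 3 d, and 1599.6, 1610.4 and 1644 at 10 d. Its vector libraries held 1375, 1320.0 and 1396 CPM at 6 h, 1443, 1147 and 1386 at 24 h, 1197, 1197 and 1183 at 3 d, and 999, 927 and 1067 at 10 d. The α1ACT libraries lay above the vector libraries at every labelled time. Ddc was higher in α1ACT by 1.22-fold at 6 h (0.29 ± 0.06, edgeR adjusted p = 0.000551), 1.34-fold at 24 h (0.42 ± 0.06, 2.45e-06), 1.22-fold at 3 d (0.28 ± 0.06, 0.000792) and 1.62-fold at 10 d (0.70 ± 0.06, 7.08e-10). The level was lowest in vector 10 d, which stood apart from the next group, vector 3 d. Vector 3 d, vector 24 h and vector 6 h each overlapped the next, as did α1ACT 10 d, α1ACT 6 h and α1ACT 24 h at the top. The α1ACT 3 d libraries lay between, apart from vector 6 h and from α1ACT 10 d but overlapping vector 24 h, whose highest library stood at 1443 CPM.

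Dbh encodes dopamine β-hydroxylase, the granule enzyme that makes noradrenaline. Its group means were 38.7 ± 1.91, 32.7 ± 3.09, 44.9 ± 4.28 and 41.0 ± 4.98 CPM in α1ACT libraries at 6 h, 24 h, 3 d and 10 d, and 35.0 ± 6.81, 36.4 ± 5.75, 41.6 ± 5.69 and 35.8 ± 1.26 CPM in vector libraries (SD, n = 3). Libraries ranged from 27.2 to 49.7 CPM, and every group overlapped its neighbour in level. No line difference of Dbh passed. The log2 fold changes of α1ACT over vector were 0.15 ± 0.12 (edgeR adjusted p = 0.357) at 6 h, -0.16 ± 0.13 (0.284) at 24 h, 0.11 ± 0.12 (0.519) at 3 d and 0.20 ± 0.13 (0.180) at 10 d. Without all libraries numbered 2 the difference at 24 h was -0.26 and passed (adjusted p = 0.0111).

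Cyb561 encodes cytochrome b561, which carries electrons across the granule membrane to renew the ascorbate that dopamine β-hydroxylase uses. It had 2111, 2197 and 2210.2 CPM in α1ACT libraries at 6 h, 2370.4, 2443 and 2262 at 24 h, 2240.2, 2082 and 2233 at 3 d, and 2538, 2511 and 2571 at 10 d. Vector libraries had 1343, 1314 and 1433 CPM at 6 h, 2285, 2168 and 2304 at 24 h, 1634, 1494 and 1638 at 3 d, and 1978, 1835 and 2004 at 10 d. The lines overlapped at 24 h and were apart at the other times. Cyb561 was 1.59-fold higher in α1ACT at 6 h (0.67 ± 0.05, edgeR adjusted p = 1.11e-10), 1.38-fold at 3 d (0.46 ± 0.05, 8.19e-08) and 1.31-fold at 10 d (0.39 ± 0.05, 2.44e-07). At 24 h the difference of 0.07 ± 0.05 did not pass (adjusted p = 0.264). Vector 6 h, vector 3 d and vector 10 d were the lowest groups and stood apart from each other, while α1ACT 6 h, α1ACT 3 d, vector 24 h and α1ACT 24 h each overlapped the next below α1ACT 10 d.

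Slc18a1 encodes the endocrine vesicular monoamine transporter, which loads amines into granules. Its α1ACT libraries held 971, 1315 and 914 CPM at 6 h, 962, 1093 and 963 at 24 h, 832, 951 and 806 at 3 d, and 802, 916 and 779.8 at 10 d. Its vector libraries held 666, 856 and 656 CPM at 6 h, 1354, 1339 and 1246 at 24 h, 569, 615 and 566 at 3 d, and 930.4, 888 and 1012 at 10 d. The α1ACT libraries lay above the vector libraries at 6 h and 3 d, below them at 24 h, and overlapped them at 10 d. Slc18a1 was 1.47-fold higher at 6 h (0.56 ± 0.11, edgeR adjusted p = 0.000172) and 1.48-fold higher at 3 d (0.56 ± 0.11, 0.000163), and 1.31-fold lower at 24 h (-0.38 ± 0.11, 0.00311). The call at 24 h ended without all libraries numbered 1 (adjusted p = 0.107). At 10 d the difference of -0.18 ± 0.11 did not pass (adjusted p = 0.146), but it did in a fit of those 6 libraries alone (0.0387) and without all libraries numbered 2 (-0.30, 1.61e-05). Vector 3 d stood apart at the low end, and the other 7 groups each overlapped the next in level up to vector 24 h.

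Slc6a2 encodes the noradrenaline transporter of the plasma membrane, which takes released amine back up. It had 202, 215 and 197 CPM in α1ACT libraries at 6 h, 189, 194 and 186 at 24 h, 278, 259 and 245 at 3 d, and 224, 213 and 216 at 10 d. In vector libraries it had 155, 150.0 and 145 CPM at 6 h, 220.0, 226 and 209 at 24 h, 198, 193 and 188 at 3 d, and 251, 339.9 and 259 at 10 d. The lines did not overlap at any labelled time, with α1ACT above vector at 6 h and 3 d and below it at 24 h and 10 d. The differences were 1.36-fold higher at 6 h (0.45 ± 0.08, edgeR adjusted p = 4.23e-05), 1.15-fold lower at 24 h (-0.20 ± 0.07, 0.0246), 1.35-fold higher at 3 d (0.43 ± 0.07, 5.45e-05) and 1.30-fold lower at 10 d (-0.38 ± 0.07, 9.93e-05). The call at 24 h ended without α1ACT replicate 1 (adjusted p = 0.0605) or 3 (0.0658), or vector replicate 1 (0.0638) or 2 (0.0814), of that time, and without all libraries numbered 1 (0.164) or 3 (0.0839). Vector 10 d replicate 2 was the highest library, and without it the difference at 10 d was -0.23 (adjusted p = 0.000738). Vector 6 h stood apart at the low end. The groups α1ACT 24 h, vector 3 d, α1ACT 6 h, α1ACT 10 d and vector 24 h each overlapped the next, and α1ACT 3 d and vector 10 d overlapped each other above them.

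**Figure D2:**
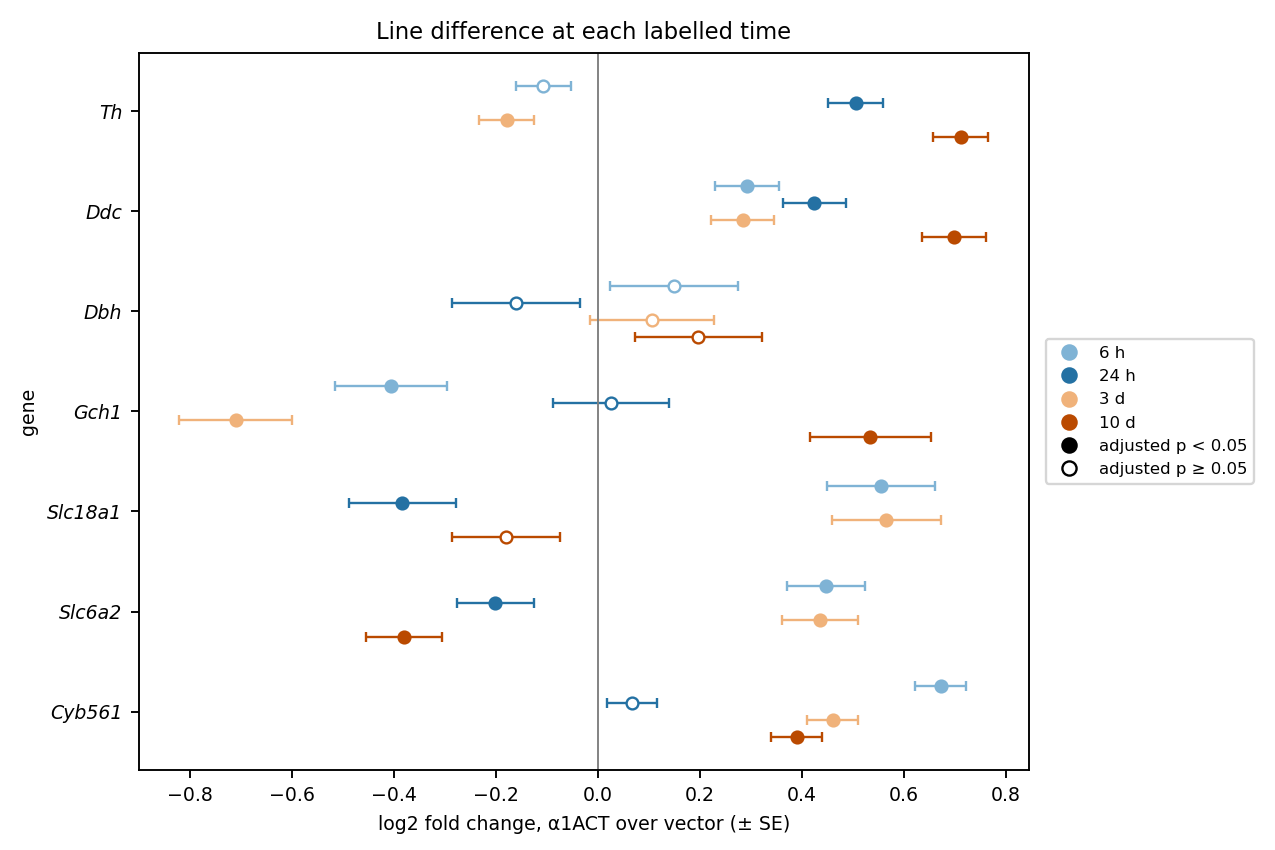
Log2 fold change of α1ACT over vector (± SE, edgeR) for each measurable member at the 4 labelled times, with filled points at adjusted p under 0.05. Ddc was higher in α1ACT at all 4 times (0.28 to 0.70), while Slc6a2 changed sign between 6 h or 3 d (0.45 and 0.43) and 24 h or 10 d (-0.20 and -0.38).

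Counted over the members, 5 of the 7 tested passed at 6 h, where 41.6% of all 9994 tested genes did. Of these, Ddc, Cyb561, Slc18a1 and Slc6a2 were higher in α1ACT, 4 of 7 against 20.5% of all genes, and Gch1 was lower, 1 of 7 against 21.2%. At 24 h 4 passed, against 55.5%, with Th and Ddc higher (26.6% of all genes were) and Slc18a1 and Slc6a2 lower (28.8%). At 3 d 6 passed, against 39.4%, with Ddc, Cyb561, Slc18a1 and Slc6a2 higher (19.9%) and Th and Gch1 lower (19.4%). At 10 d 5 passed, against 58.9%, with Th, Ddc, Gch1 and Cyb561 higher (29.5%) and Slc6a2 lower (29.4%). Among the genes called at 6 h, 49.1% were higher in α1ACT with TMM factors and 60.3% with library sizes in their place. With so many genes passing throughout the series, such counts are read against that background and not as particular to these genes. The median log2 fold change of the 7 members was 0.29, 0.03, 0.28 and 0.39 at 6 h, 24 h, 3 d and 10 d, and that of all tested genes lay between -0.02 and 0.01.

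Averaged over the 4 times, Ddc (0.42 ± 0.03, edgeR adjusted p = 1.29e-11), Cyb561 (0.40 ± 0.02, 7.30e-13), Th (0.23 ± 0.03, 3.70e-08) and Slc18a1 (0.14 ± 0.05, 0.0238) were higher and Gch1 lower (-0.14 ± 0.06, 0.0324) in α1ACT, so that 5 of 7 passed, against 66.3% of all genes (33.6% higher and 32.7% lower). The calls of Slc18a1 and Gch1 did not hold in every fit. Leaving out 1 library ended that of Gch1 in 10 of 24 cases (adjusted p = 0.0525 to 0.0930) and that of Slc18a1 without α1ACT 6 h replicate 2 (0.0519), vector 3 d replicate 1 (0.0501) or α1ACT 10 d replicate 2 (0.0676). Without all libraries numbered 1 neither Gch1 (0.190) nor Slc18a1 (0.0849) passed, without those numbered 3 Gch1 did not (0.0796), and in DESeq2 neither did (Gch1 0.0528, Slc18a1 0.0581). Slc6a2 (0.08 ± 0.04, 0.0785) passed without vector 10 d replicate 2 (0.12, 0.000233), without all libraries numbered 2 (0.00132), with library sizes (0.0333) and under the replicate block (0.0476). The line difference itself differed between the labelled times, by the interaction of line and time, for 6 of the 7 members, against 57.7% of all genes. The edgeR adjusted p was 1.14e-10 for Th, 6.68e-08 for Slc6a2, 5.47e-07 for Cyb561, 1.69e-06 for Gch1, 2.19e-06 for Slc18a1 and 0.000627 for Ddc, and 0.268 for Dbh (0.0202 without all libraries numbered 2). By the file names the average is of time differences, 24 h over 6 h and 10 d over 3 d in each line. The interaction then asks whether these 4 time differences are equal, and is not one of line and time.

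Within the α1ACT line, Th was higher at 24 h than at 6 h (1.37-fold, edgeR adjusted p = 2.46e-07) and Gch1 lower (1.55-fold, 6.07e-05), the 2 members that passed, against 44.1% of all genes (21.7% higher and 22.4% lower). Cyb561 (0.12 ± 0.05, 0.0543) also passed in DESeq2 (0.0317), under the replicate block (0.0355) and without α1ACT 24 h replicate 3 (0.0321), and without all libraries numbered 2 Ddc (0.00842) and Dbh (0.0107) did. Within the vector line, Slc18a1 (1.81-fold, 1.38e-07), Cyb561 (1.65-fold, 3.30e-12) and Slc6a2 (1.45-fold, 8.70e-07) were higher at 24 h than at 6 h. Gch1 (2.09-fold, 7.76e-09) and Th (-0.16 ± 0.05, 0.0116) were lower, so that 5 passed, against 61.5% of all genes (31.6% higher and 29.9% lower). The call of Th ended without vector 6 h replicate 1 (adjusted p = 0.0528) or vector 24 h replicate 3 (0.0512), and without all libraries numbered 1 (0.114) or 3 (0.105). By the file names these differences are 10 d over 24 h and 3 d over 6 h, both in vector.

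At 10 d against 3 d, Th (1.62-fold, edgeR adjusted p = 2.43e-10) and Cyb561 (1.16-fold, 0.000857) were higher and Slc6a2 lower (1.20-fold, 0.00572) in α1ACT. Ddc (1.11-fold, 0.0435) and Gch1 (-0.28 ± 0.11, 0.0488) also passed, so that 5 of 7 did, against 44.6% of all genes (21.8% higher and 22.8% lower). The call of Ddc ended without any 1 of the 6 libraries (adjusted p = 0.0572 to 0.151) and with library sizes (0.157), and that of Slc6a2 without all libraries numbered 1 (0.0858). That of Gch1 ended without α1ACT 3 d replicate 2 (-0.11, 0.445), α1ACT 10 d replicate 1 (0.173) or α1ACT 10 d replicate 2 (0.171), without all libraries numbered 1 (0.161) or 2 (0.538), and in DESeq2 (0.0899), with RLE factors (0.0527) and in a fit of the 2 groups alone (0.0596). In the vector line Slc18a1 (1.62-fold, 3.32e-06), Slc6a2 (1.47-fold, 4.31e-07) and Cyb561 (1.22-fold, 1.68e-05) were higher at 10 d than at 3 d. Gch1 (2.88-fold, 1.55e-11), Ddc (1.20-fold, 0.000860) and Th (1.15-fold, 0.00235) were lower, 6 of 7 against 64.2% of all genes (33.2% higher and 31.0% lower). Dbh passed without vector 3 d replicate 3 (-0.31, 0.0487). By the file names these differences are 10 d over 24 h and 3 d over 6 h, both in α1ACT.

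Differences were fewer between 3 d and 6 h. In α1ACT 1 member passed, Slc6a2 (1.27-fold higher, edgeR adjusted p = 0.0149), against 1.06% of all genes (0.800% higher and 0.260% lower). That call ended without α1ACT 6 h replicate 1 (0.0964), α1ACT 6 h replicate 3 (0.0879) or α1ACT 3 d replicate 1 (0.197). In vector 2 passed, Slc6a2 (1.29-fold higher, 0.0134) and Cyb561 (1.17-fold higher, 0.0219), against 1.47% (1.14% higher and 0.330% lower). The call of Slc6a2 ended without vector 6 h replicate 2 (0.0584) or 3 (0.0532) or vector 3 d replicate 1 (0.0929). That of Cyb561 ended without vector 6 h replicate 1 (0.0929) or 2 (0.117) or vector 3 d replicate 1 (0.148) or 3 (0.154). None of these 3 calls held without all libraries numbered 1 (adjusted p = 0.396 to 0.839) or 3 (0.306 to 0.341). Without all libraries numbered 2, Ddc and Slc18a1 were lower in both lines and Gch1 in α1ACT (adjusted p = 0.000182 to 0.0111). Gch1 in α1ACT was also lower without α1ACT 3 d replicate 2 (0.00706) and with no filter on low counts (0.0409). By the file names the difference labelled α1ACT is α1ACT over vector at 24 h and the one labelled vector is α1ACT over vector at 6 h.

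At 10 d against 24 h, Th was higher in α1ACT (1.18-fold, edgeR adjusted p = 0.0143), 1 of 7 against 4.62% of all genes (2.21% higher and 2.41% lower). Its call ended in a fit of the 2 groups alone (adjusted p = 0.101) and without α1ACT 24 h replicate 1 (0.0794) or 2 (0.0574) or α1ACT 10 d replicate 1 (0.0511) or 3 (0.107), as well as without all libraries numbered 1 (0.355) or 3 (0.128). Without those numbered 2, Ddc (0.0120) and Slc18a1 (0.000772) were lower and Slc6a2 (0.0163) and Cyb561 (0.0424) higher. In vector Slc6a2 was higher (1.30-fold, 0.00260) and Ddc (1.33-fold, 0.000249), Slc18a1 (1.39-fold, 0.00657), Gch1 (1.42-fold, 0.00875) and Cyb561 (1.16-fold, 0.00831) were lower, 5 of 7 against 7.44% of all genes (4.29% higher and 3.15% lower). Without vector 10 d replicate 2 the log2 difference of Slc6a2 was 0.23 (adjusted p = 0.0174), and in a fit of the 2 groups alone its call ended (0.0721), as did that of Cyb561 (0.0886). The call of Cyb561 also ended without vector 24 h replicate 1 (0.0509) or 3 (0.0619) or vector 10 d replicate 2 (0.0687), and that of Gch1 without vector 24 h replicate 3 (0.0523). Without all libraries numbered 1, Slc6a2 passed but Ddc (0.0690), Slc18a1 (0.162), Gch1 (0.105) and Cyb561 (0.163) did not, and without those numbered 3, Ddc passed but Slc18a1 (0.0513), Gch1 (0.101), Slc6a2 (0.0643) and Cyb561 (0.127) did not. By the file names the difference labelled α1ACT is α1ACT over vector at 10 d and the one labelled vector is α1ACT over vector at 3 d.

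Pooled over both labelled lines, 3 d and 10 d against 6 h and 24 h, 6 of 7 members passed in edgeR, against 15.6% of all genes (8.25% higher and 7.37% lower). Slc6a2 was higher (1.25-fold, 0.32 ± 0.04, adjusted p = 1.28e-06), with every library above those it is set against in each of the 4 differences. Slc18a1 (1.27-fold, -0.34 ± 0.05, 6.19e-05), Ddc (1.18-fold, -0.24 ± 0.03, 8.23e-06) and Gch1 (1.17-fold, -0.22 ± 0.06, 0.00859) were lower. Ddc had no overlap in any of the 4, and Slc18a1 overlapped in 1. The share of all tested genes without such overlap was not computed. Libraries were also apart in differences that did not pass, such as that of Dbh in α1ACT at 3 d over 6 h (edgeR adjusted p = 0.610). Dbh (0.19 ± 0.06, 0.0375) and Th (0.08 ± 0.03, 0.0333) passed narrowly, and leaving out 1 library ended the call of Dbh in 13 of 24 cases (adjusted p = 0.0525 to 0.0818) and that of Th in 11 of 24 (0.0519 to 0.0723). Without all libraries numbered 1, Gch1 (0.166), Dbh (0.173) and Th (0.302) did not pass, without those numbered 2 Dbh did not (0.703), and without those numbered 3 Gch1 (0.0797) and Th (0.262) did not. Cyb561 did not pass (0.03 ± 0.02, 0.462). By the file names this pooled difference is not of times but of lines, α1ACT over vector over the 4 times.

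**Figure D3:**
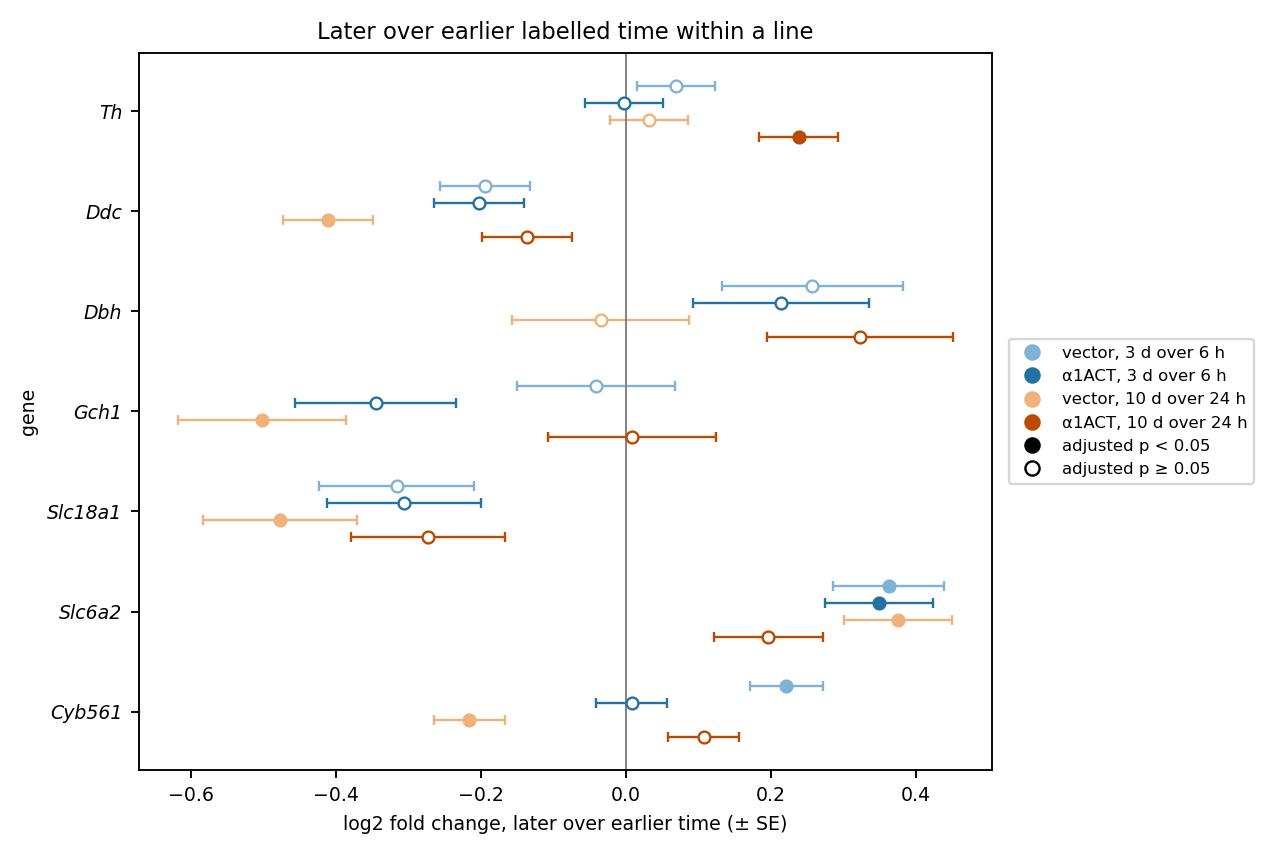
Log2 fold change of the later over the earlier labelled time (± SE, edgeR) for 3 d over 6 h and 10 d over 24 h in each labelled line, with filled points at adjusted p under 0.05. Slc6a2 lay above 0 in all 4 (0.20 to 0.38) and Slc18a1 and Ddc below 0 in all 4.

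The 4 differences were also tested against each other, which by the file names asks whether the line difference depends on time. Of all tested genes 4, or 0.0400%, passed in edgeR, and 0 to 371 did when replicates were left out. Cyb561 was 1 of them (adjusted p = 0.0354), with log2 differences of 0.01 ± 0.05 and 0.11 ± 0.05 in α1ACT at 3 d over 6 h and 10 d over 24 h, and 0.22 ± 0.05 and -0.22 ± 0.05 in vector. That call ended in 16 of 24 cases with 1 library left out (adjusted p = 0.0536 to 0.150), with RLE factors (0.0543), with library sizes (0.0631), and without all libraries numbered 1 (0.663) or 3 (0.550). The other 6 members did not pass (adjusted p = 0.259 to 0.828), Slc18a1 giving the highest p. Ddc passed without vector 24 h replicate 2 (0.0374), and without all libraries numbered 2 both Ddc (0.0201) and Gch1 (0.00291) did.

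Arranged by file name, each of the 7 tested members had its highest group at the same time in both lines. The share of all tested genes that do so was not computed, so this is not read as particular to these genes. Th stood at 5793, 5116, 5049.6 and 8265 CPM at 6 h, 24 h, 3 d and 10 d in the libraries whose files are named as α1ACT, and at 5523, 5127, 4939 and 7006 CPM in those named as vector. Gch1 stood at 257, 157, 89.3 and 129.6 CPM in the files named as α1ACT and at 265, 199.7, 126 and 129 CPM in those named as vector. The highest Th and the highest Cyb561 (2540.1 CPM named as α1ACT, 2359 CPM named as vector) then stood at 10 d in both, and the highest Gch1 at 6 h in both. Slc18a1 stood at 583, 863, 944 and 832 CPM in the files named as α1ACT and at 726, 1067, 1313 and 1006 CPM in those named as vector, highest at 3 d in both. Slc6a2 stood at 193, 261, 283 and 218 CPM in the files named as α1ACT and at 150.2, 205, 218 and 190.1 CPM in those named as vector, also highest at 3 d in both. Ddc was highest at 10 d in both (1618 CPM named as α1ACT, 1778 CPM named as vector). Dbh, whose groups each overlapped the next in level, was highest at 24 h in both (44.9 CPM named as α1ACT, 38.7 CPM named as vector). Which of the 2 sets of names is right was not tested.

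**Figure D4:**
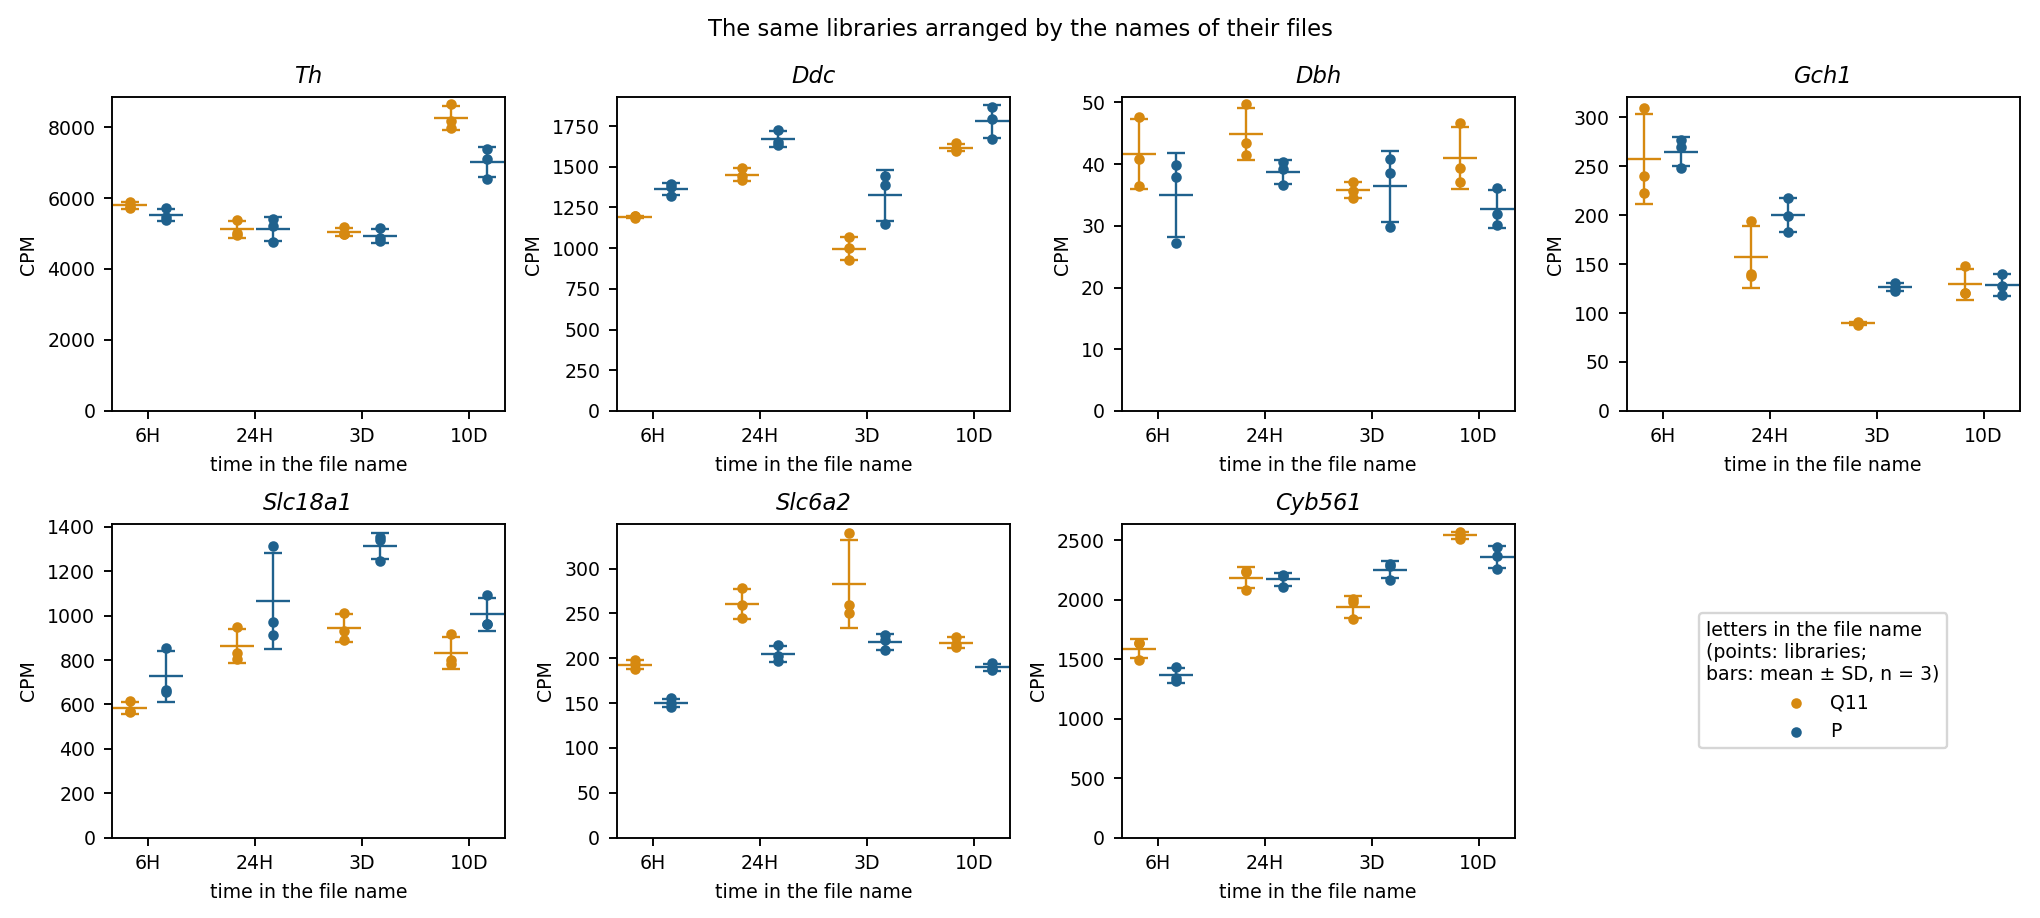
The same CPM values and means ± SD (n = 3) as by label, here against the time in the file name, with libraries named Q11 (the titles' code for α1ACT) to the left of those named P (vector). Slc18a1 peaked at 3D in both (944 and 1313 CPM), and Th was highest at 10D in both (8265 and 7006 CPM).

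Other genes of the pathway were read from lists of its cofactor, breakdown, receptors and regulators. Of 13 tested genes of tetrahydrobiopterin and of the regulation of tyrosine hydroxylase, 2 were higher and 4 lower in α1ACT at 6 h, 10 at 24 h, all higher, 3 higher and 3 lower at 3 d, and 9 at 10 d, all higher (edgeR adjusted p under 0.05, median log2 fold changes -0.00, 0.33, 0.04 and 0.40). Of all tested genes, 20.5% were higher and 21.2% lower at 6 h, 26.6% higher at 24 h, 19.9% higher and 19.4% lower at 3 d, and 29.5% higher at 10 d. Spr, sepiapterin reductase, which completes the cofactor, was 3.37-fold higher at 24 h (adjusted p = 1.26e-12), at 171 CPM in α1ACT and 50.3 CPM in vector, and 3.59-fold higher at 10 d (7.65e-13), at 158 CPM in α1ACT and 44.1 CPM in vector. At 6 h it was lower (1.28-fold, 0.00695), and at 3 d its difference of 0.03 ± 0.10 did not pass (0.835). Prkar2b, a regulatory subunit of protein kinase A, was 1.74-fold and 1.86-fold higher at those times. At 6 h and 3 d Prkar2b was also higher (1.27-fold and 1.22-fold), and Ppp2ca, a protein phosphatase catalytic subunit, was lower (1.23-fold and 1.28-fold), while at 24 h it was higher (1.13-fold, 0.00733) and at 10 d its difference of 0.01 ± 0.06 did not pass (0.861). Between 3 d and 6 h or 10 d and 24 h, 0 of the 13 passed in edgeR in either line. Of all tested genes, 1.06% passed in α1ACT and 1.47% in vector at 3 d, and 4.62% in α1ACT and 7.44% in vector at 10 d. The unadjusted p was under 0.05 for 0 in α1ACT and 2 in vector at 3 d and for 1 in α1ACT and 5 in vector at 10 d, for which no share of all genes is given. DESeq2 called 2 of them, both in vector at 10 d.

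Of 16 genes listed for catecholamine breakdown and other uptake, 8 were tested. These include Renbp, which is not a gene of this pathway, so the counts that follow are of the list. In α1ACT 3 were higher and 1 lower at 6 h, 3 and 2 at 24 h, 3 at 3 d, all higher, and 5 and 1 at 10 d, where 41.6%, 55.5%, 39.4% and 58.9% of all tested genes passed in either direction. Maoa, monoamine oxidase A, was higher at 6 h (1.33-fold, edgeR adjusted p = 1.27e-05), 24 h (0.58 ± 0.06, 2.54e-08), 3 d (1.16-fold, 0.00899) and 10 d (1.56-fold, 5.24e-09). Slc29a4, the plasma membrane monoamine transporter, was lower at 24 h and 10 d (2.16-fold and 2.13-fold), at 102 CPM in α1ACT and 221 CPM in vector at 24 h. It was also lower at 6 h (1.21-fold, 0.00858), and at 3 d its difference of -0.18 ± 0.08 did not pass (0.0893). None of 14 adrenergic and dopamine receptor genes passed the filter on low counts.

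Among 18 tested regulators of the sympathoadrenal lineage, 3 were higher and 6 lower in α1ACT at 6 h, 2 and 9 at 24 h, 3 and 5 at 3 d, and 2 and 12 at 10 d. Of all tested genes, 20.5% were higher and 21.2% lower at 6 h, 26.6% and 28.8% at 24 h, 19.9% and 19.4% at 3 d, and 29.5% and 29.4% at 10 d. Gata2, a zinc finger factor of sympathoadrenal cells, was higher at 6 h (1.60-fold, edgeR adjusted p = 8.83e-09) and 3 d (1.77-fold, 2.71e-10), and lower at 24 h (1.86-fold, 1.74e-11) and 10 d (1.83-fold, 2.46e-11). Epas1, hypoxia-inducible factor 2α, was likewise higher at 6 h (1.55-fold) and 3 d (1.69-fold) and lower at 24 h (2.32-fold) and 10 d (2.27-fold). Phox2a, a homeodomain factor that activates Dbh, was 1.87-fold lower at 10 d (-0.90 ± 0.06, 3.05e-12), at 249.8 CPM in α1ACT and 466 CPM in vector. The difference of Dbh did not pass there, and a link between these genes was not tested. Phox2a was also lower at 24 h (-0.58 ± 0.06, 4.78e-09) and 6 h (-0.14 ± 0.06, 0.0499), and at 3 d its difference of -0.10 ± 0.06 did not pass (0.169). Ret, the receptor of the GDNF family, was higher at 24 h (2.23-fold, 2.37e-11) and 10 d (2.57-fold, 1.79e-12) and lower at 6 h (1.21-fold, 0.0107) and 3 d (1.17-fold, 0.0357).

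Among the 5 genes whose log2 CPM followed Th most closely over the 24 libraries, of 9308 genes averaging at least 2 CPM over these, were Pdk3 (Pearson r = 0.970), Rgs2 (0.961), Eef1b2 (0.940) and Pdha1 (0.939). Rgs2 reached that average only through α1ACT 24 h and 10 d (6.33 and 13.1 CPM), where Th was also highest. In all other groups Rgs2 averaged 0.652 to 1.99 CPM. Pdk3, a kinase of pyruvate dehydrogenase, averaged 427 CPM in α1ACT and 161 CPM in vector at 10 d. The closest genes to Dbh were Inmt (0.733), Apba1 (0.704), S100a5 (0.640), Cp (0.639) and Sorcs1 (0.635). They are the highest of 9308 values, for a gene whose groups each overlapped the next in level. How high r would run by chance was not tested. Among the members themselves, the highest r was 0.589, between Slc18a1 and Cyb561, and the lowest -0.689, between Gch1 and Slc6a2. These values describe 24 libraries that fall into 8 groups of 3 and are not independent points.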

How the data were processed

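Total RNA libraries of 24 PC12 samples were sequenced as pairs of 100 bases in 3 lanes, per the labels. For each library the authors deposited raw read counts, as whole numbers under gene symbols, followed by 5 summary lines that no size or test here includes (of reads with a unique place, 47.8% to 52.9% lay outside genes). Named in the submitters' processing notes are HTSeq 0.5.4p5, TopHat2 2.0.10, Picard 1.117, FastQC 0.11.2, edgeR and the build rn5. The sources used here do not give what each did, the annotation or the strand setting, so reads of overlapping antisense genes may not be told apart. Depth on genes was 8679560 to 14486248 counts.

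Genes were filtered with edgeR 4.0.16 in R 4.3.3 (minimum count 10, minimum total 15, by group), which left 9994 of 17055. The quasi-likelihood F-test was run on all 24 libraries in 1 fit with TMM factors (0.981 to 1.02), 1 coefficient per labelled group and 16 residual degrees of freedom, with Benjamini-Hochberg adjustment over all tested genes in each of 16 comparisons and a threshold of 0.05. SE is the log2 fold change divided by the square root of F. The steps were tested on simulated data. Alternatives were RLE factors, library sizes, no filter, DESeq2 1.42.0, fits of only the groups compared, a replicate block, and leaving out replicates. All measured members are named. From each other list the text may name, per comparison, the 3 genes with the smallest adjusted p, and the genes most like Th and Dbh are the 5 with the highest Pearson r of log2 CPM (prior count 2). The members and lists were chosen with earlier results of these data known. Of the listed symbols, Pcbd2, Insm1 and Foxd3 are among those not analysed here, and some genes that the rule would name are not reported here. The labels do not say whether replicates were separate cultures. The p-values therefore cover only the spread among these libraries, which may be technical. At the labelled 3 d, libraries of the same number deviated together across lines (correlations of deviations from group means over genes of 0.124, 0.318 and 0.139). At 6 h they did so about as much (0.164, 0.342 and 0.098). Over all groups the mean correlation was 0.098 for same-numbered pairs and -0.048 for differently numbered pairs. Deviations from a group's mean cancel out within the group, so the second value largely follows from the first and adds no evidence of pairing. Such pairing is read from the data and not from the design. The values reported, those at 3 d included, come from the fit without the block, and adding it changed no call of a member between the lines at 3 d.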

Additional observations from a re-analysis of the deposited data

Results flagged for a closer look

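The line difference (α1ACT over vector) differed between the labelled times, by the joint interaction test of edgeR with Benjamini-Hochberg adjustment, for 6 members. The adjusted p was 1.14e-10 for Th, whose log2 difference ran from -0.18 at 3 d to 0.71 at 10 d, and 6.68e-08 for Slc6a2, with -0.38 at 10 d and 0.45 at 6 h at its extremes. It was 5.47e-07 for Cyb561 (0.07 at 24 h and 0.67 at 6 h), 1.69e-06 for Gch1 (-0.71 at 3 d and 0.53 at 10 d), 2.19e-06 for Slc18a1 (-0.38 at 24 h and 0.56 at 3 d) and 0.000627 for Ddc (0.28 at 3 d and 0.70 at 10 d). By the file names this test compares time differences within the lines, and is not one of line and time.

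The differences of 3 d against 6 h and of 10 d against 24 h in the labelled lines, which by the file names are the differences of the lines at 4 times, passed the edgeR test of inequality for Cyb561 (adjusted p = 0.0354). That call ended in 16 of 24 fits with 1 library left out (adjusted p = 0.0536 to 0.150), with RLE factors (0.0543) and with library sizes (0.0631).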

How the results depend on the processing

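Of 112 member results, 65 passed in the fit reported. With RLE factors 63 of these passed, with library sizes 63, with no filter on low counts 65, with DESeq2 62, and in fits of the 2 groups alone 43 of 47. Over fits leaving out replicates, 783 of 909 such calls held, and no called member changed sign under any setting run. The cause of each change below was not tested. Depth limits Pnmt and Slc18a2, which could not be tested.

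The replicate number as a block kept all 65 calls and added 6, among them Slc18a1 between the lines at 10 d (adjusted p = 0.0403). It called 258 genes for vector 3 d against 6 h (147 in the fit reported) and 193 for α1ACT (106), where 2 members passed in place of 1, as also for α1ACT 10 d against 24 h. Of 24 libraries, 18 correlated best, on average, with their own number in the other groups, a hint from the data and not from the design. The equality of the 4 differences had 47 genes under the block, 112 with no filter and 125 in DESeq2 (4 in the fit reported), and 0 members with RLE factors or library sizes (1 in the fit reported). With no filter vector 3 d against 6 h had 226 genes and α1ACT 3 d against 6 h 2 members. In fits of the 2 groups alone the genes were 314 of 744 for vector 10 d against 24 h (3 members), 160 for α1ACT 3 d against 6 h (2 members) and 63 of 462 for α1ACT 10 d against 24 h (0 members). DESeq2 called 3 members for the mean of 4 times. Joint, averaged and pooled tests use every group and have no fit of fewer.

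Leaving out replicates, genes called for α1ACT against vector were 2580 to 3984 at 6 h and 2449 to 3640 at 3 d, with 2 to 5 members at 24 h and 3 to 6 over the mean. For 3 d against 6 h they were 8 to 361 in α1ACT (0 to 4 members) and 5 to 479 in vector (0 to 4). For 10 d against 24 h they were 0 to 814 in α1ACT (0 to 5 members) and 79 to 1125 in vector (1 to 5). In α1ACT 24 h against 6 h gave 2599 to 4545 genes (2 to 4 members) and 10 d against 3 d 2948 to 4321 (2 to 4). The pooled times gave 314 to 2062 genes (3 to 6 members), and the equality test 0 to 371 (0 to 3).

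Uncalled log2 differences that changed sign were Gch1 in α1ACT 10 d against 24 h (0.008 in the fit reported, -0.009 with library sizes, -0.003 in the 2 groups alone, -0.101 to 0.117 leaving out replicates) and, leaving out replicates, Gch1 between the lines at 24 h (-0.046 to 0.085) and in vector 3 d against 6 h (-0.190 to 0.065), Dbh in vector 24 h against 6 h (-0.090 to 0.187), 3 d against 6 h (0 to 0.442) and 10 d against 24 h (-0.177 to 0.079), Ddc in vector 24 h against 6 h (-0.117 to 0.054), Slc18a1 in α1ACT 24 h against 6 h (-0.195 to 0.081) and 10 d against 3 d (-0.125 to 0.018), and Th (-0.059 to 0.028) and Cyb561 (-0.030 to 0.041) in α1ACT 3 d against 6 h.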

Other observations

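Genes of acetylcholine handling, which PC12 cells express beside the catecholamine pathway, were also read from a list. Of 6 tested, 2 passed in α1ACT against vector at the labelled 6 h, 5 at 24 h, 2 at 3 d and 3 at 10 d, all of them higher but 1 at 24 h (edgeR adjusted p under 0.05), where 41.6%, 55.5%, 39.4% and 58.9% of all tested genes passed. Chat, which makes acetylcholine, stood at 34.7 CPM in α1ACT and 20.9 CPM in vector at 24 h (1.66-fold, adjusted p = 5.89e-07) and at 27.2 CPM in α1ACT and 15.6 CPM in vector at 10 d (1.74-fold, 4.52e-07). Slc18a3, the vesicular acetylcholine transporter, was also higher at those times (2.00-fold and 1.71-fold). At 3 d Chat was higher (1.23-fold, 0.0230) and Slc18a3 did not pass (0.0850), and at 6 h neither passed (Chat 0.0632, Slc18a3 0.248). Pooled over both lines, Slc18a3 was 1.62-fold higher at 3 d and 10 d than at 6 h and 24 h (0.70 ± 0.07, 3.64e-07). By the file names that difference is α1ACT over vector.

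The proton pump that drives amines into granules had 16 tested genes. In α1ACT 3 were higher and 3 lower at 6 h, 4 and 6 at 24 h, 1 and 3 at 3 d, and 5 and 4 at 10 d, or 6, 10, 4 and 9 of 16 against 41.6%, 55.5%, 39.4% and 58.9% of all tested genes. Atp6v1b2, a subunit of the catalytic part, was higher at 24 h (1.66-fold, edgeR adjusted p = 1.95e-08) and 10 d (1.80-fold, 1.54e-09) and also at 6 h (1.19-fold, 0.0148), and at 3 d it did not pass (0.120). Atp6v0e1 was higher at 6 h (1.32-fold, 1.69e-06) and 3 d (1.27-fold, 1.41e-05) and lower at 24 h (1.23-fold, 2.94e-05), and at 10 d it did not pass (0.482). Atp6v1c1 was lower at 6 h and 3 d (1.14-fold and 1.19-fold) and higher at 24 h and 10 d (1.10-fold and 1.22-fold).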
